A study of Sus scrofa with 24 samples.

Results

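The comparison concerns feed restriction within a pig line selected for high residual feed intake. This trait is the gap between what a pig eats and the intake predicted from its weight and growth. Per the labels, 8 pigs of the high line had free access to feed (RFIpl) and 8 pigs of the same line were held to the amount that the low line eats (RFIplR). These 16 samples were chosen by their titles out of 24, and the remaining 8 are pigs of the low line with free access to feed (RFIneg). All are subcutaneous adipose tissue taken at 115 kg body weight, with total RNA from 1 pig on each one-colour Agilent array. The sources used here do not give breed, sex or age. The comparison asks what a lower feed allowance did to fat transcripts when the selection line was held constant. With weight held at 115 kg, feeding level and age at sampling cannot be told apart here.

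Subcutaneous fat stores energy as triglyceride in adipocytes. With ample feed, insulin favours the uptake and synthesis of fatty acids, and with less feed hormones and nerves release them through lipolysis. Besides adipocytes the tissue holds endothelial cells, fibroblasts, macrophages and other immune cells, and a sample may carry fragments of muscle or skin. Adipocytes also secrete hormones, of which leptin and adiponectin are the best known.

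Levels below are log2 processed intensity minus the 75th percentile of the array, so that 0 is the signal of a probe at that percentile. A difference of 1 on this scale is a factor of 2. Each level belongs to 1 probe, and levels of different probes cannot be set against each other. Across the 24 arrays, 17 were bright, with a 75th percentile of 414 to 663 intensity units, and 7 were dim, at 69.4 to 94.4. The dim arrays included RFIpl 5 and 6 and RFIplR 2, 4 and 6, and the fit carried the brightness class as a block. Values are therefore given within a class, over 6 RFIpl and 5 RFIplR bright arrays and over 2 and 3 dim ones. The p-values are from limma with Benjamini-Hochberg adjustment over all 28606 probes kept, and a probe was called at an adjusted p under 0.05. They measure the spread between pigs.

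Of the 28606 probes, 2963 (10.4%) were called between restricted and freely fed pigs, of which 1673 were higher in RFIplR (5.85%) and 1290 lower (4.51%). Median centring in place of the 75th percentile called 2324 higher and 792 lower, so that the share of higher calls moved from 56.5% to 74.6%. The absolute log2 difference of the called probes had a median of 0.60, 448 of them were over 1 and 48 over 2. Symbols could be given to 1189 called probes, which stand for 694 genes, 413 higher and 281 lower, with no gene called in both directions. All 2963 called probes had the same sign within the bright arrays alone and 2927 within the dim arrays alone, but they were called on these same arrays. Of all 28606 probes 17641 had the same sign in both classes. At the brightest probe of each gene, 335 of 4324 genes rose (7.75%) and 187 fell (4.32%), and the counts of gene groups below are to be read against those shares.

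Some freely fed arrays stood apart. RFIpl 3 lay with the restricted pigs for many of the genes that changed most. Of the 12 genes with the largest rise, its level fell inside the range of the 5 bright RFIplR arrays for 10, against 0 or 1 for each of the other bright RFIpl arrays. Of the 12 with the largest fall it did so for 9, against 0 to 5. This likeness was not to restricted pigs alone, since RFIneg stood near RFIplR at many of these genes. With the brightness difference removed, mean levels of RFIneg and RFIplR were 5.88 and 5.74 for CES1, 3.09 and 3.04 for SDR16C5 and -3.74 and -3.22 for CLDN3. At PEX11A, SIRT1 and FBXO32 RFIpl 3 had 2.62, 0.50 and 1.43. There it lay inside the range of the other bright RFIpl arrays. The feed it received cannot be read from an array, so it keeps its label, and with it left out 3671 probes were called. RFIpl 2 and, to a lesser degree, RFIpl 1 carried skeletal muscle transcripts, with a mean level over 7 measured muscle markers of 6.20 and 1.07 against -1.33 to -0.61 on the other 6 RFIpl arrays and -1.59 to -0.40 in RFIplR. RFIpl 7 and 8 carried keratinocyte transcripts, with a mean of SFN and DSP of 4.78 and 3.34 against -3.19 to -0.61 in RFIplR. With RFIpl 1 and 2 left out 1900 probes were called, with RFIpl 7 and 8 left out 1782, and with all 4 left out 389, which then rest on 4 freely fed pigs. In that last fit 5 of the 12 largest rises kept their call: CYP2A19, CES1, SDR16C5, S100A12 and UCP3. Of the 12 largest falls 2 did, CYP4F2 and MCM3. With all arrays kept but normexp background correction, neither of these 2 was called, at -0.94 and 0.15. That correction kept the call of 11 of the 12 largest rises and of 2 of the 12 largest falls, CLDN3 and PI15.

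The level of the adipocyte markers differed between arrays as well. The mean level of 6 markers (LEP, CIDEC, PLIN1, LIPE, ADIPOQ and FABP4) was 5.21 to 5.93 on 7 RFIpl arrays and 6.46 on RFIpl 3, against 6.11 to 6.33 in RFIplR. All 6 had a difference above 0, with a median of 0.36 on the log2 scale beside 0.01 over all genes, and PLIN1 and ADIPOQ were called while the other 4 were not. PLIN1 lost its call in 12 of the fits that left out 1 array. In whole tissue a smaller share of adipocytes and less of a transcript per adipocyte cannot be told apart. The part of the adipocyte share in the results below was not tested.

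**Figure D1:**
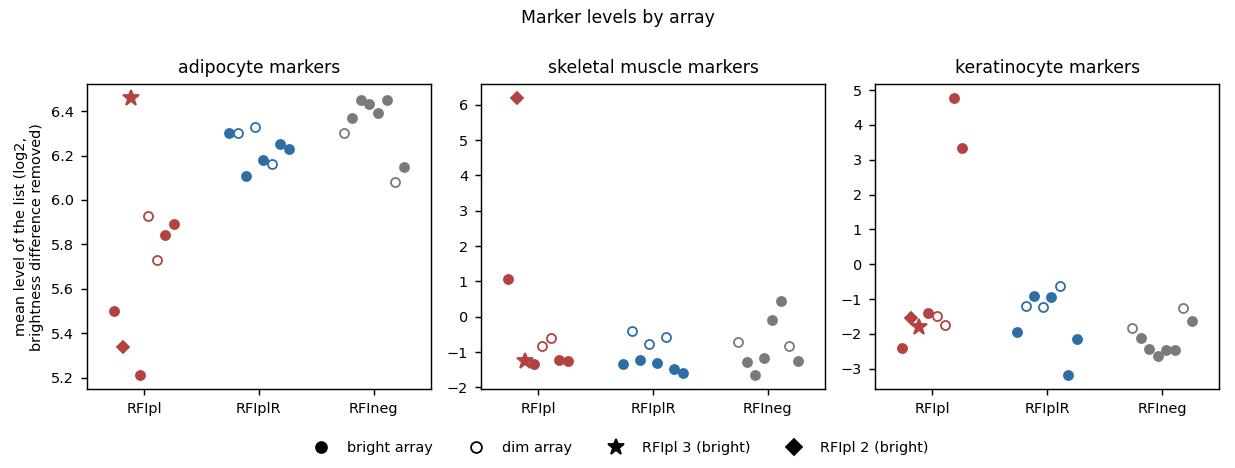
Mean log2 level of adipocyte, skeletal muscle and keratinocyte markers on each array, with the brightness difference removed, for RFIpl, RFIplR and RFIneg. Filled points are bright arrays, open points dim ones. RFIpl 2 stands at 6.20 for muscle, RFIpl 7 at 4.78 for keratinocyte markers, and RFIpl 3 at 6.46 for adipocyte markers.

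A probe of several genes with large or even changes is given here, since a probe is all that the array measures of a gene. For SDR16C5, UCP3 and PEX11A it is another called probe than the one described further on. Each is the whole oligonucleotide as listed in the scanner files, read 5′ to 3′, and none has letters marked.
SDR16C5: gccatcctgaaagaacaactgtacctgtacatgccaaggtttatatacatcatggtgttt
S100A12: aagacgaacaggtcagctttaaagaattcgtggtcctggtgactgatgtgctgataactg
UCP3: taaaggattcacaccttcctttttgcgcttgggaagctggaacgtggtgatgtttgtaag
FHL1: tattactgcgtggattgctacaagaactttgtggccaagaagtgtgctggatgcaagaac
CLDN4: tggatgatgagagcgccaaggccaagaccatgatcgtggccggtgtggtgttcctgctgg
PEX11A: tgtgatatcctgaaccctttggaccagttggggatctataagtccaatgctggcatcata
The first 4 were higher in restricted pigs, by 2.24, 1.96, 1.56 and 1.37 on the log2 scale, and the last 2 were lower, at -2.48 and -1.26. The probes are 60 bases long, with a GC content of 40.0% for SDR16C5, 60.0% for CLDN4 and 45.0% for the other 4.

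Enzymes that handle lipids, esters and foreign compounds were among the largest rises in restricted pigs. CYP2A19, a cytochrome P450 known in the pig for breaking down skatole, rose by 3.46 (SE 0.61, adjusted p = 0.00156). Its level on bright RFIpl arrays was lowest at -0.11, with a median of 1.70 and a highest value of 5.44 on RFIpl 3, against 5.40, 5.73 and 5.94 in RFIplR. On dim arrays it stood at -0.03 and 1.24 in RFIpl and at 3.79, 4.23 and 2.42 in RFIplR. Without RFIpl 3 the bright groups do not overlap, and all 7 kept probes of the gene were called, at 2.33 to 3.46.

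CES1, a carboxylesterase that hydrolyses esters and can act on lipids, rose 9.13-fold, by 3.19 (SE 0.59, adjusted p = 0.00221). Bright RFIpl arrays ran from 0.73 over a median of 2.29 to 5.64, and RFIplR from 4.31 over 5.76 to 6.78. RFIpl 3 was again the highest of the freely fed pigs, and RFIpl 7, at 4.51, also reached the restricted range. The dim arrays did not overlap, at 0.34 and 1.70 against 4.12, 6.47 and 4.43. All 7 probes of CES1 were called, at 2.32 to 3.19.

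SDR16C5, a short-chain dehydrogenase that oxidises retinol, rose 4.76-fold, by 2.25 (SE 0.32, adjusted p = 0.000388). Freely fed pigs on bright arrays stood at -0.03 to 0.68 with the exception of RFIpl 3 at 3.28, and restricted pigs at 2.56 to 3.57. UGT1A6, which joins glucuronic acid to small molecules, rose by 2.03 (SE 0.44, adjusted p = 0.00595), and was the only glucuronosyltransferase measured. Of 16 cytochrome P450 genes measured, CYP2A19 rose and CYP4F2 fell, and the median of the 16 was 0.13, a count made after the values had been seen.

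CA3, the carbonic anhydrase of muscle and adipocytes, rose by 2.14 (SE 0.48, adjusted p = 0.00735), with all 20 kept probes called at 1.69 to 2.14. Of 6 carbonic anhydrases measured it was the one called, a family also picked after the values were seen. SNCG, the gamma-synuclein found in neurons and adipocytes, rose by 2.14 (SE 0.44, adjusted p = 0.00464). Its dim arrays stood at -1.42 and -1.02 in RFIpl and at 1.68, 0.78 and -0.30 in RFIplR. UCHL1, a ubiquitin hydrolase best known from neurons, rose by 1.87 (SE 0.45, adjusted p = 0.0116). It was not called under normexp, at 0.98 (adjusted p = 0.14), or within the bright arrays alone, at 1.34 (adjusted p = 0.162).

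A secreted protein and a protease precursor of the liver were also among the largest rises. MYOC, or myocilin, rose by 1.96 (SE 0.38, adjusted p = 0.00275). KLKB1, plasma prekallikrein, rose by 2.62 (SE 0.53, adjusted p = 0.00393), from a low signal. It was well above background on 5 RFIpl, 5 RFIplR and 6 RFIneg arrays, so that RFIneg alone met the filter of 6 of 8 arrays. Its median on bright arrays was -4.32 in RFIpl and -1.66 in RFIplR.

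UCP3, a mitochondrial carrier that is high in muscle and responds to fatty acids, rose 3.44-fold, by 1.78 (SE 0.31, adjusted p = 0.00147). Its level on bright arrays was 3.61, 4.23 and 5.80 (lowest, median, highest) in RFIpl and 5.80, 6.18 and 6.53 in RFIplR, the groups meeting at the value of RFIpl 3. On dim arrays it was 4.04 and 3.21 against 5.37, 6.37 and 5.67. UCP2, the related carrier of many tissues, was called at -0.77 (SE 0.24, adjusted p = 0.0457), but lost the call in 11 of the fits that left out 1 array and stood at -0.36 (adjusted p = 0.524) with RFIpl 1, 2, 7 and 8 left out. RFIpl 2, the array with the muscle transcripts, had 5.55 for UCP3, and with RFIpl 1 and 2 left out the difference of UCP3 was 1.83.

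The calgranulins, calcium-binding proteins of neutrophils and monocytes, were higher in restricted pigs at 3 genes. S100A12 rose by 1.96 (SE 0.25, adjusted p = 0.000381), and its groups did not overlap in either class: bright RFIpl arrays lay at 0.34 to 2.64 and RFIplR at 2.98 to 3.88, the dim ones at -0.38 and 0.14 against 1.54, 1.72 and 1.32. S100A8 rose by 1.78 (SE 0.34, adjusted p = 0.00263) and S100A9 by 1.12 (SE 0.32, adjusted p = 0.0273). The rise of S100A9 was 1.67 within the bright arrays, and its difference was -0.09 within the dim ones. The other 6 S100A genes measured, a family picked after the values were seen, were not called. Of 7 macrophage markers measured none was called, with a median of -0.22.

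**Figure D2:**
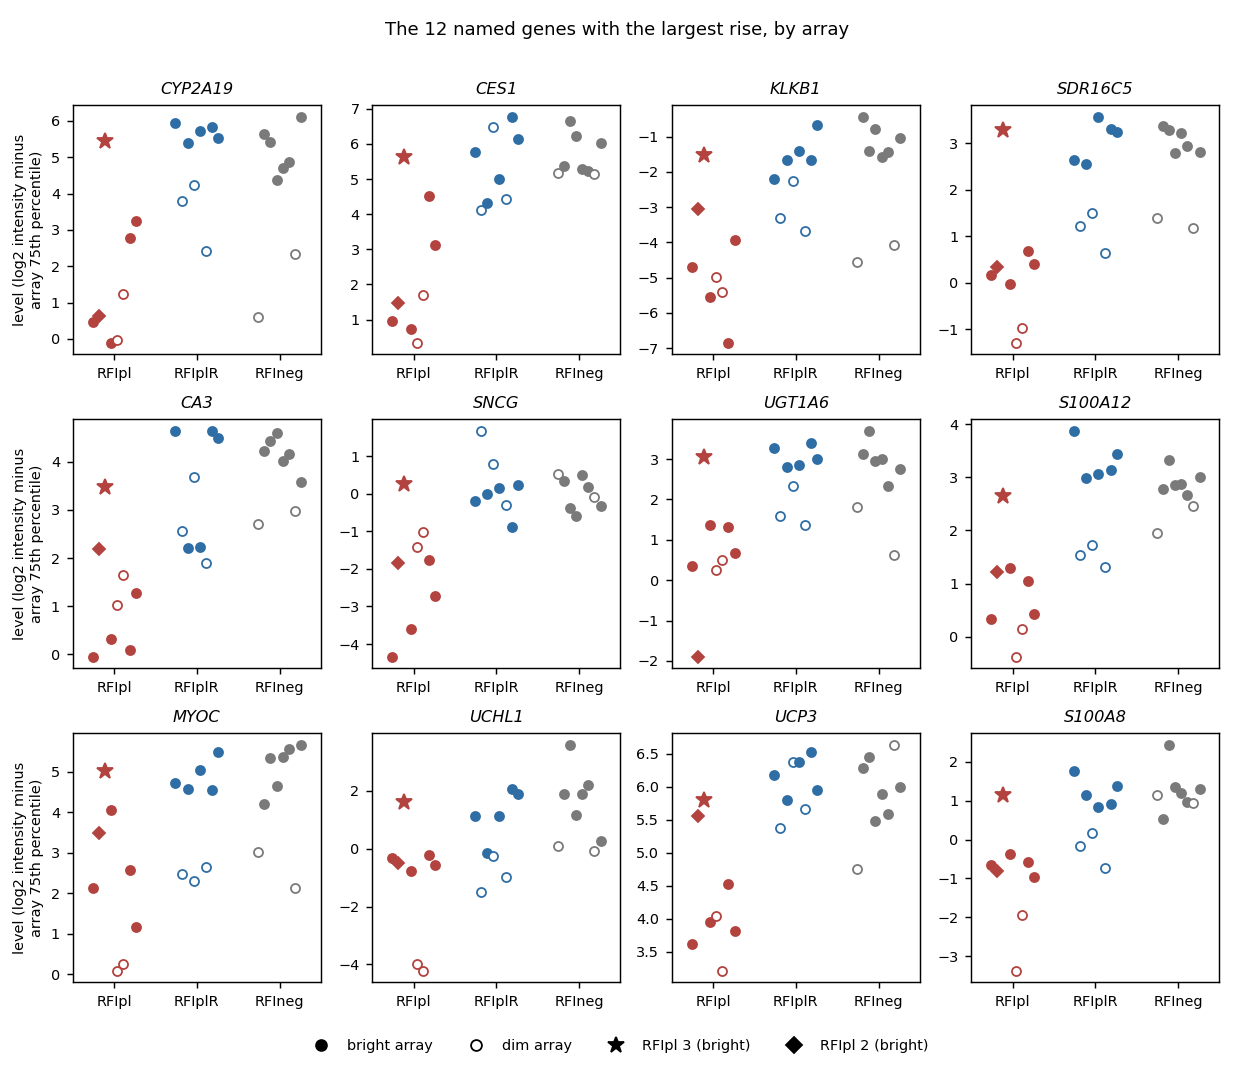
Log2 level of the 12 named genes with the largest rise on every array of RFIpl, RFIplR and RFIneg, 1 panel a gene, with filled points for bright and open points for dim arrays. RFIpl 3 (star) lies inside the range of the 5 bright RFIplR arrays for 10 of the 12 genes.

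Epithelial junction genes were among the largest falls. CLDN3, a tight junction protein of epithelia, fell by 3.93 (SE 0.66, adjusted p = 0.00115), and was well above background on 8 RFIpl and 5 RFIplR arrays. Bright RFIpl arrays had 0.43 to 2.93 with the exception of RFIpl 3 at -3.78, and RFIplR -3.30 to -2.33. The dim arrays stood at 0.72 and 1.83 against -2.49, -4.12 and -3.89. The other kept probe of CLDN3 was not called, at -0.62, so that the size rests on 1 probe.

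CLDN4, of the same family, fell by 2.48 (SE 0.57, adjusted p = 0.00895), with bright medians of -2.39 and -5.99. It was well above background on 7 RFIpl and 3 RFIplR arrays, so the size is measured against a group mostly near background, and under normexp the difference was -0.43 and not called (adjusted p = 0.378). Its dim arrays overlapped, at -1.55 and -0.94 against -3.88, -0.83 and -2.33. Of 16 claudins measured, counted after the values were seen, CLDN3 and CLDN4 fell and CLDN10 rose. The 4 arrays with muscle or keratinocyte transcripts are all freely fed. CLDN3 and CLDN4 kept their calls with RFIpl 1 and 2 left out (-3.37 and -1.92) and with RFIpl 7 and 8 left out (-3.86 and -2.33). With all 4 left out the difference of CLDN3 was -2.91 (adjusted p = 0.0593) and that of CLDN4 -1.32 (adjusted p = 0.232), and neither was called. The part of these transcripts in the falls was not tested.

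RBP5, a cellular retinol-binding protein, fell by 2.38 (SE 0.65, adjusted p = 0.0222), and both its probes were called. At the probe given the call was lost under normexp (-1.54), within the bright arrays alone (-2.13) and with RFIpl 1 and 2 left out (-2.01). CYP4F2, which hydroxylates fatty acids at the omega end, fell by 2.19 (SE 0.48, adjusted p = 0.00689), with a bright median of -0.65 in RFIpl and -3.01 in RFIplR. CYP4F2 was not called under normexp, at -0.94 (adjusted p = 0.125), or within the bright arrays alone, at -1.94 (adjusted p = 0.0968). PI15, a secreted peptidase inhibitor, fell by 1.75 (SE 0.44, adjusted p = 0.0144). Of the 8 retinoid genes in the list for that pathway, none was called at the brightest probe, and SDR16C5 and RBP5 were named for their size alone.

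ACTA1, the actin of skeletal muscle, had a difference of -4.91 (SE 1.58, adjusted p = 0.0486) at 1 of its 16 probes, well above background on 8 RFIpl arrays and 1 RFIplR array, so that its size is measured against a group near background. The call was lost in 14 of the fits that left out 1 array. The level of that probe was 8.25 on RFIpl 2 and 5.08 on RFIpl 1, and its difference was -3.73 and not called with RFIpl 2 left out. At the brightest ACTA1 probe the difference was -0.54. The 7 muscle markers had a median of -0.97, none called, and -0.05 with RFIpl 1 and 2 left out.

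Several of the other large falls were of weak transcripts and turned with the background correction. SH3GL3, an endophilin of membrane traffic, fell by 1.50 (SE 0.25, adjusted p = 0.00121), and MTUS2, a microtubule-associated protein, by 1.50 (SE 0.37, adjusted p = 0.0128). After normexp background correction they stood at -0.31 and -0.10 and were not called. ISM1, a secreted protein, PID1, an adaptor that dampens insulin-stimulated glucose uptake, MCM3, a subunit of the replicative helicase, and MOXD1, a monooxygenase, were called at -1.66, -1.52, -1.40 and -1.36. The same 4 stood at 0.20, 0.14, 0.15 and 0.24 under normexp, which moved the median of all probes to 0.16, so their direction depends on the background correction. Each of the 4 was well above background on 1 to 4 of the 8 RFIplR arrays.

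**Figure D3:**
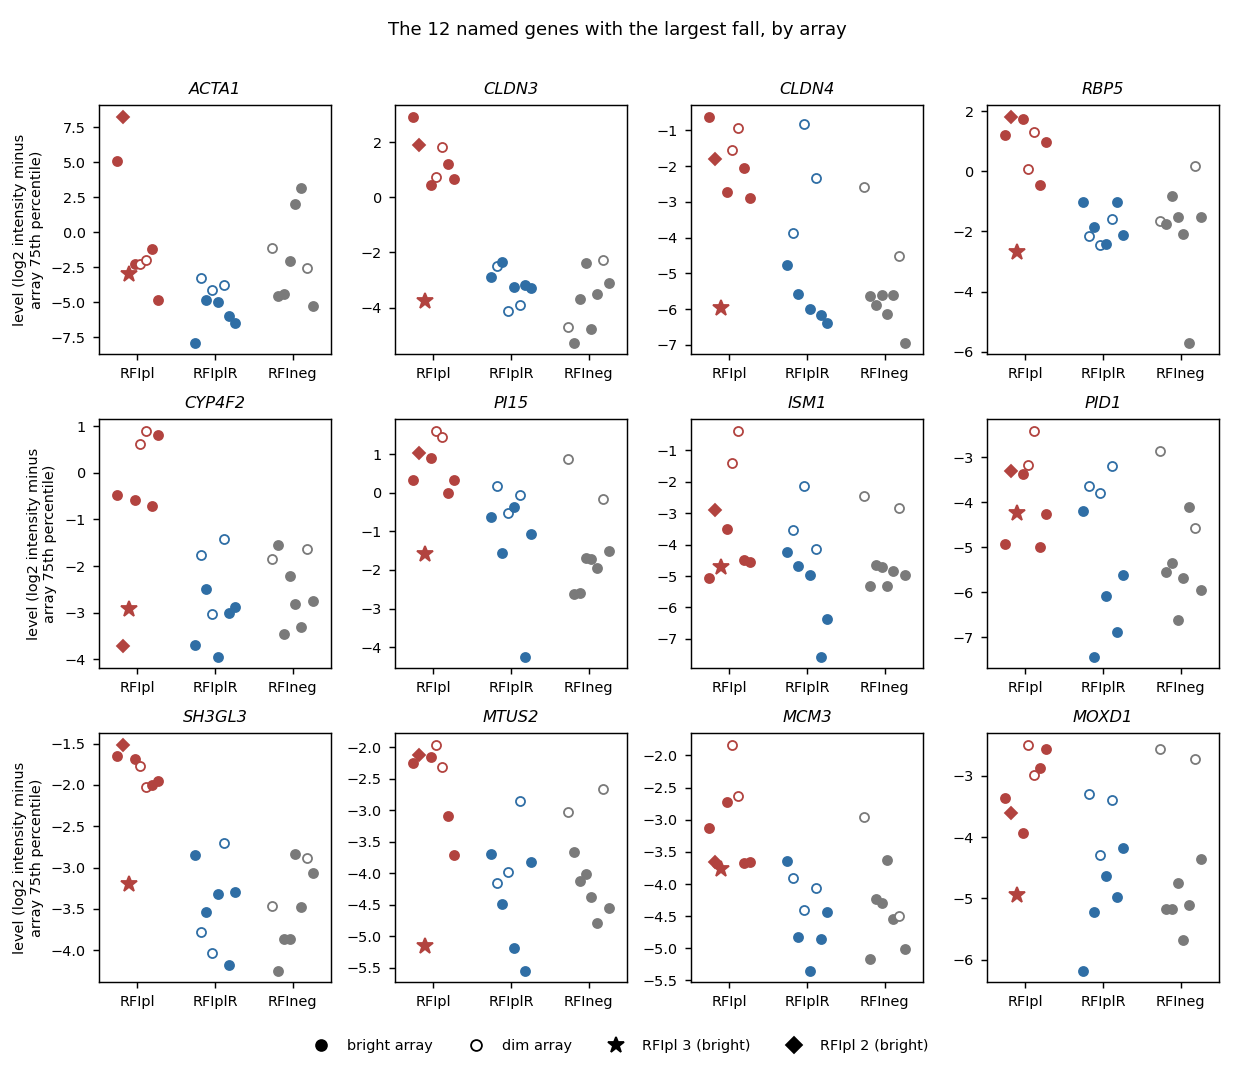
Log2 level of the 12 named genes with the largest fall on every array of RFIpl, RFIplR and RFIneg, drawn as for the rises. RFIpl 2 (diamond) stands at 8.25 for ACTA1, and RFIpl 3 (star) at -3.78 for CLDN3, below the other freely fed pigs.

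**Figure D4:**
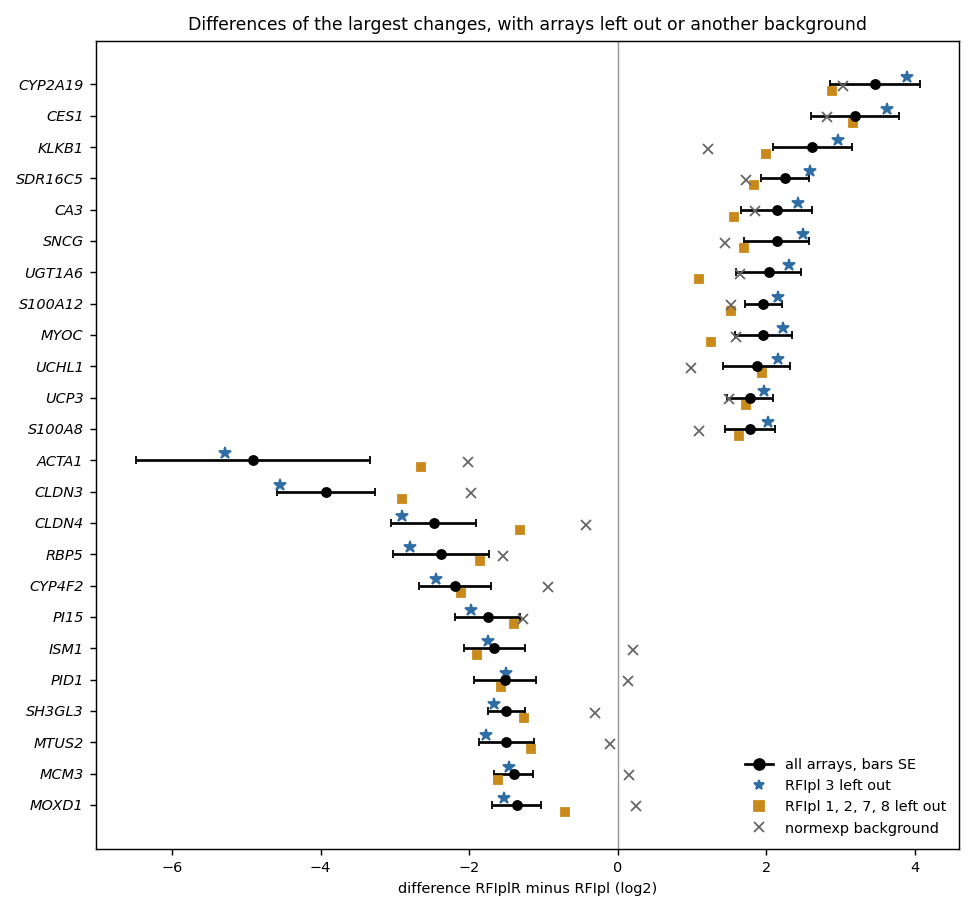
Log2 difference RFIplR minus RFIpl of the 24 largest changes (circles, bars SE), with RFIpl 3 left out (stars), with RFIpl 1, 2, 7 and 8 left out (squares) and after normexp background correction (crosses). The difference of ISM1, PID1, MCM3 and MOXD1 lies above 0 under normexp.

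Some smaller changes had the lowest p-values, and these genes were picked after their values were seen. PIK3IP1, an inhibitor of phosphoinositide 3-kinase, rose by 1.06 (SE 0.14, adjusted p = 0.000381). Its bright arrays lay at 2.03 to 2.76 in RFIpl and 2.97 to 3.56 in RFIplR, its dim ones at 1.40 and 1.51 against 2.50, 2.67 and 2.86, so that the groups did not overlap in either class, RFIpl 3 included. Of all kept probes, 879 (3.07%) had bright groups that did not overlap.

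FHL1, a LIM domain protein of muscle and other tissues, rose by 1.37 (SE 0.18, adjusted p = 0.000381), with all 16 kept probes called at 0.68 to 1.37. Its bright range was 1.47 to 3.19 in RFIpl and 3.04 to 3.73 in RFIplR, and RFIpl 3 was the array that overlapped. KCTD9, an adaptor of cullin ubiquitin ligases, rose by 0.70 (SE 0.09, adjusted p = 0.000381) and FAM149A by 1.19 (SE 0.17, adjusted p = 0.000381).

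PEX11A, which drives the division of peroxisomes, fell by 1.27 (SE 0.18, adjusted p = 0.000388), with all 3 probes called at -1.31 to -1.26. On bright arrays it stood at 2.38 to 2.92 in RFIpl and 1.45 to 1.76 in RFIplR, on dim ones at 3.59 and 3.96 against 2.30, 1.88 and 2.21. The groups did not overlap in either class, and RFIpl 3 was at 2.62, among the freely fed pigs. The difference was -1.35 with RFIpl 1, 2, 7 and 8 left out and -1.33 under normexp. GALNT7, which starts O-linked sugar chains, fell by 0.85 (SE 0.12, adjusted p = 0.000388), also without overlap.

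Probes without a symbol made up 1774 of the 2963 called. Among them, picked after their values were seen, 2 probes described in the files as fibrillin 2 fell by 2.78 and 2.58 (adjusted p = 0.000388 and 0.000525). A probe described as catenin alpha-2 rose by 2.13 (adjusted p = 0.000842), and one described as ADAM3b by 1.72 (adjusted p = 0.000381).

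Among 15 genes of lipolysis and its control, 5 rose and 0 fell, with a median of 0.34. Besides CES1 these were AQP7, the glycerol channel of adipocytes (0.60), ADORA1, the adenosine receptor that restrains lipolysis, by 0.64 (SE 0.19, adjusted p = 0.0318), NPR1, the natriuretic peptide receptor, by 0.42 (SE 0.13, adjusted p = 0.0375), and PLIN1, the coat protein of lipid droplets, by 0.39 (SE 0.12, adjusted p = 0.0474). ADORA1 and PLIN1 are brakes on lipolysis at rest. The lipases themselves were not called: PNPLA2 had a difference of 0.01 (adjusted p = 0.966), LIPE 0.34 and MGLL -0.01. With RFIpl 1 and 2 left out 1 of the 15 was called.

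Of 12 genes of fatty acid synthesis, 0 rose and 0 fell, with a median of 0.19. FASN, fatty acid synthase, had a difference of 0.41 (SE 0.27, adjusted p = 0.356) and SCD, stearoyl-CoA desaturase, of 0.60 (SE 0.36, adjusted p = 0.303). Both were lowest on RFIpl 2, at 6.05 and 4.36, and with that array left out the differences were 0.14 and 0.19. LPL, which frees fatty acids from circulating triglyceride, had 0.21 (adjusted p = 0.518), and PPARG, the regulator of adipocyte formation, -0.15 (adjusted p = 0.569). FABP3 fell by 0.64 (SE 0.16, adjusted p = 0.0148), the single call among 14 uptake and binding genes. FITM2, which helps droplets form, fell by 0.73 (SE 0.22, adjusted p = 0.036), the single call among 15 genes of triglyceride synthesis.

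Of 19 fatty acid oxidation genes, 3 rose and 0 fell at the brightest probe, with a median of 0.22. ECHS1 and HADH, enzymes of the mitochondrial spiral, each rose by 0.56 (adjusted p = 0.0242 and 0.0395), and ACAA1, a peroxisomal thiolase, rose by 0.54 (adjusted p = 0.0441) at the weaker of its 2 probes. PPARA, a nuclear receptor of fatty acids, was called at 1.34 (SE 0.43, adjusted p = 0.0495) while its other probe stood at -0.14. The call of PPARA was lost in 14 of the fits that left out 1 array. CPT1A, the gate of mitochondrial import, fell by 0.59 (SE 0.18, adjusted p = 0.0397) at 1 of 5 probes. At the brightest probe none of the 19 was called with RFIpl 1 and 2 left out or under normexp.

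In central carbon metabolism single genes were called in both directions. Of 16 genes of the citrate cycle and pyruvate 1 rose and 1 fell at the brightest probe, with a median of 0.02. PC, pyruvate carboxylase, rose by 0.40 (SE 0.11, adjusted p = 0.0266). PDK1, which inhibits pyruvate dehydrogenase, rose by 0.59 (SE 0.19, adjusted p = 0.0497) at a weaker probe, outside the count. It lost the call in 13 of the fits that left out 1 array. IDH2, a mitochondrial isocitrate dehydrogenase, fell by 0.51 (SE 0.10, adjusted p = 0.00221). Of 15 genes of glucose uptake and glycolysis, 0 rose and 1 fell. That was PKM2, pyruvate kinase, by 0.86 (SE 0.21, adjusted p = 0.0113), and TPI1 fell by 0.53 (SE 0.16, adjusted p = 0.0376) at a weaker probe.

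Of 18 respiratory chain genes, none was called at the brightest probe, with a median of -0.14, while CYCS, cytochrome c, fell by 0.93 (SE 0.20, adjusted p = 0.0062) at 6 of 12 probes called. ALDH6A1 and DBT, enzymes of branched-chain amino acid breakdown, rose by 0.71 (adjusted p = 0.00886) and 0.58 (adjusted p = 0.0446). The 9 genes of that pathway had a median of 0.39, and ALDH6A1 was the one called at its brightest probe. In cholesterol synthesis INSIG2 rose by 0.61 (adjusted p = 0.0113) and NSDHL fell by 0.79 (adjusted p = 0.0134) among 13 genes measured.

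Of 19 genes of insulin and IGF signalling, 2 rose, 4 fell and 13 were not called, with a median of -0.18. AKT1, the kinase downstream of the insulin receptor, fell by 0.80 (SE 0.15, adjusted p = 0.00225), with bright arrays of 0.83 to 1.97 in RFIpl and 0.38 to 0.95 in RFIplR and dim ones of 2.09 and 1.93 against 1.15, 1.06 and 1.17. Its difference was -0.74 and called with RFIpl 1, 2, 7 and 8 left out, and -0.77 and called under normexp.

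SOCS2, a growth hormone target that damps its receptor, fell by 0.96 (SE 0.20, adjusted p = 0.00524). IGFBP5 and IGF2 fell by 0.80 (adjusted p = 0.0239) and 0.40 (adjusted p = 0.0302). GHR, the growth hormone receptor, and IGF2R, the receptor that clears IGF2, rose by 0.41 (adjusted p = 0.0313) and 0.40 (adjusted p = 0.0119). Under normexp SOCS2, GHR and IGF2R were not called, at -0.46, 0.16 and 0.14, while IGFBP5 and IGF2 were. IGF1 had a difference of -0.43 (SE 0.15, adjusted p = 0.0662), which was called at -0.52 without RFIpl 2 and at -0.50 without RFIpl 3. It was -0.30 (adjusted p = 0.231) without RFIpl 7 and 8 and -0.31 (adjusted p = 0.269) without RFIpl 1, 2, 7 and 8, and the other IGF1 probe stood at 0.13.

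Of 13 genes of fasting and energy sensing, 3 rose and 0 fell, with a median of 0.17. With RFIpl 1, 2, 7 and 8 left out 3 were called as well, FBXO32 and SIRT1 among them and KLF15 not. FBXO32, a ubiquitin ligase raised in fasting muscle, rose 3.18-fold, by 1.67 (SE 0.35, adjusted p = 0.00542). Its bright arrays ran from -0.29 to 2.29 in RFIpl and from 2.38 to 3.30 in RFIplR, and its dim ones stood at 0.13 and 0.50 against 1.95, 2.57 and 1.86. The highest freely fed pig was RFIpl 2, and without it the difference was 1.85.

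SIRT1, a deacetylase that depends on NAD, rose by 0.73 (SE 0.14, adjusted p = 0.00275). Its groups did not overlap in either class, at 0.42 to 0.99 against 1.02 to 1.65 on bright arrays and -0.98 and -0.85 against -0.24, 0.17 and -0.31 on dim ones. The other probe of SIRT1 was not called, at 0.12. KLF15, a transcription factor of fasting metabolism, rose by 0.78 (SE 0.19, adjusted p = 0.0139), from a bright range of 2.42 to 4.03 to one of 3.20 to 4.13, and was not called with RFIpl 1 and 2 or with RFIpl 7 and 8 left out, at 0.67 and 0.69.

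Clock genes had the highest list median, 0.72 over 5 genes. CIART, a repressor of the circadian clock, rose by 1.26 (SE 0.19, adjusted p = 0.000525), from -1.39 to -0.12 on bright RFIpl arrays to 0.00 to 0.56 in RFIplR. On dim arrays it was -2.53 and -2.41 against -1.46, -1.35 and -1.38, and the groups did not overlap in either class. NR1D1 and ARNTL had differences of 1.27 and 0.72 and were not called, and RORA had 0.55. NFIL3 was called at -1.20 (SE 0.30, adjusted p = 0.0147) at a weaker probe, and stood at -0.73, not called, at its brightest. Under normexp the weaker probe stood at 0.12, where the median of all probes was 0.16. The sources used here do not give the hour of sampling.

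Of 9 genes of adipokines and their receptors, 3 rose and 0 fell, with a median of 0.31. ADIPOQ, adiponectin, rose by 0.29 (SE 0.08, adjusted p = 0.0207) at its brightest probe, where bright arrays ran from 7.93 to 8.19 in RFIpl and from 8.24 to 8.41 in RFIplR and dim ones from 7.11 and 7.14 to 7.19, 7.46 and 7.58. Of its 8 probes 5 were called, at up to 0.48. The brightest ADIPOQ probe was not called under normexp, at 0.05, or without RFIpl 7 and 8, at 0.28. The probe at 0.48 stood at 0.21 under normexp and was not called. SFRP5, an adipokine that binds Wnt proteins, rose by 1.30 (SE 0.32, adjusted p = 0.0131), and RFIpl 3 had the highest level of all bright arrays at 3.29.

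ADIPOR2, an adiponectin receptor, and RBP4, the retinol carrier of plasma, rose by 0.44 (adjusted p = 0.0276) and 0.36 (adjusted p = 0.025). LEP, leptin, had a difference of 1.34 (SE 0.46, adjusted p = 0.0663). Its level on bright arrays was -0.06, 1.58 and 3.94 in RFIpl and 2.53, 2.89 and 3.40 in RFIplR. The highest freely fed pig was RFIpl 3, so leaving it out widens the difference, and LEP was then called at 1.63. With RFIpl 1, 2, 7 and 8 left out the difference was 0.85 and not called (adjusted p = 0.411).

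Class II genes present peptides of proteins taken up by immune cells. All 9 measured had a difference above 0, with a median of 0.38, and 5 rose. CD74, the invariant chain, rose by 0.53 (SE 0.10, adjusted p = 0.002), and the class II chains SLA-DRA, SLA-DRB1 and SLA-DQA1 by 0.50, 0.54 and 0.54 (adjusted p = 0.00508, 0.0104 and 0.0109). The probes of related SLA chains may share transcripts, so these genes are not independent. At the brightest probe none of the 9 was called with RFIpl 1, 2, 7 and 8 left out, at a median of 0.19, or under normexp, at 0.26. The SLA-DRB1 probe named here, a weaker one, was called at 0.58 (adjusted p = 0.0368) with those 4 arrays left out.

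Of 14 class I genes 3 rose at the brightest probe, with a median of 0.09. B2M, the light chain of class I molecules, rose by 0.56 (SE 0.10, adjusted p = 0.0017), with all 10 probes called at 0.30 to 0.60. Its dim arrays stood at 3.20 and 3.04 against 3.84, 3.84 and 3.73, and its bright ones did not overlap either. The difference of this B2M probe was 0.31 and not called under normexp. SLA-2 and SLA-6 rose by 0.44 and 0.78 (adjusted p = 0.0328 and 0.0351), and SLA-3 by 0.56 (adjusted p = 0.0129) at a weaker probe, outside the count. Of 22 chemokine and inflammation genes, the 3 calgranulins were the ones called at the brightest probe, and CXCR4, a chemokine receptor, rose by 0.75 (adjusted p = 0.0359) at a weaker one.

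Of 20 interferon response genes none was called at the brightest probe, with a median of -0.10, and STAT2 rose by 0.46 (adjusted p = 0.0291) at 1 of 5 probes, of which 2 had that sign. In coagulation F3, tissue factor, rose by 1.01 (SE 0.24, adjusted p = 0.0119) and F5 by 0.91 (SE 0.22, adjusted p = 0.013), while TFPI, the inhibitor of the tissue factor pathway, fell by 1.06 (SE 0.21, adjusted p = 0.00379). C4A, a complement component, fell by 1.21 (SE 0.33, adjusted p = 0.0214). After normexp F3, F5 and TFPI stood at 0.77, 0.63 and -0.26 and were not called, while C4A was. Of 17 genes in that list 2 rose and 2 fell, and none was called at the brightest probe with RFIpl 1, 2, 7 and 8 left out.

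Of 11 genes of autophagy and the lysosome 2 rose and 0 fell, with a median of 0.35. CTSD and CTSB, lysosomal proteases, rose by 0.59 (SE 0.12, adjusted p = 0.00373) and 0.42 (SE 0.12, adjusted p = 0.0231), and NPC2 and LAMP2 by 0.40 (adjusted p = 0.0163) and 0.44 (adjusted p = 0.0254) at a weaker probe. CTSD had bright arrays of 3.59 to 4.40 in RFIpl and 4.49 to 4.89 in RFIplR. None of the 11 was called at the brightest probe with RFIpl 1, 2, 7 and 8 left out, where the median was 0.24.

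Of 20 antioxidant genes 3 rose and 1 fell at the brightest probe, with a median of 0.14. CAT, catalase, rose by 0.52 (SE 0.10, adjusted p = 0.00207), with 8 of 9 probes called, and PRDX6, a peroxiredoxin, by 0.89 (SE 0.20, adjusted p = 0.00693) at a weaker probe, outside the count. SOD3, the secreted superoxide dismutase, and NQO1, a quinone reductase, rose by 1.04 (adjusted p = 0.0131) and 1.08 (adjusted p = 0.027, at a weaker probe, and 0.95 at the brightest). HMOX1, which breaks down heme, fell by 0.83 (SE 0.21, adjusted p = 0.0144), at -0.90 and called under normexp. CAT, PRDX6, SOD3 and NQO1 stood at 0.27, 0.59, 0.72 and 0.88 under normexp and were not called.

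Of 21 matrix genes 0 rose and 3 fell at the brightest probe, with a median of -0.30. COL1A2, a chain of type I collagen, fell by 0.64 (SE 0.19, adjusted p = 0.0379), COL12A1 by 0.94 (SE 0.27, adjusted p = 0.0262) and COL6A2 by 0.54. COL6A3 and LAMB1 fell by 0.69 (adjusted p = 0.0223) and 0.53 (adjusted p = 0.0338) at a weaker probe, and SPARC rose by 0.38 (adjusted p = 0.0332) at 1 of 7. None of the 21 was called at the brightest probe with RFIpl 1 and 2 left out, at a median of -0.35. RFIplR 7 was far below the other restricted pigs for COL6A3 and COL12A1, at -4.02 and -4.35.

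Of 9 replication and mitosis genes 1 rose and 2 fell, with a median of -0.49. Besides MCM3, RFC4, a subunit of the clamp loader, was called at -1.26 (SE 0.21, adjusted p = 0.000933), while RFC5 of the same complex rose by 0.45 (SE 0.14, adjusted p = 0.0431). RFC4 stood at 0.12 under normexp, where the list had a median of 0.15 beside 0.16 over all probes. RFC5 stood at -0.11 within the dim arrays. The fall of this list therefore depends on the background correction.

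Of 25 ribosomal protein genes none was called, with a median of 0.02. PSMC1, a proteasome subunit, rose by 0.31 (SE 0.09, adjusted p = 0.0427), the single call among 17 proteasome and chaperone genes. Of 6 glucocorticoid response genes none was called, with a median of -0.27. NR1H3, a receptor of oxysterols, fell by 0.37 (SE 0.10, adjusted p = 0.0173) among 15 adipogenic factors.

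Of 5 endothelial markers 2 rose and 1 fell at the brightest probe. PECAM1 and CDH5, adhesion proteins of endothelial cells, rose by 0.55 (adjusted p = 0.00586) and 0.52 (adjusted p = 0.0167). KDR and TEK are receptors of vascular growth factors. KDR fell by 0.74 (adjusted p = 0.0496), and TEK by 0.62 (adjusted p = 0.0206) at a weaker probe, outside the count. T cell markers CD3E, CD3D and CD2 had differences of 0.53, 0.46 and 0.31 and were not called. Of 3 red blood cell genes none was measured.

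**Figure D5:**
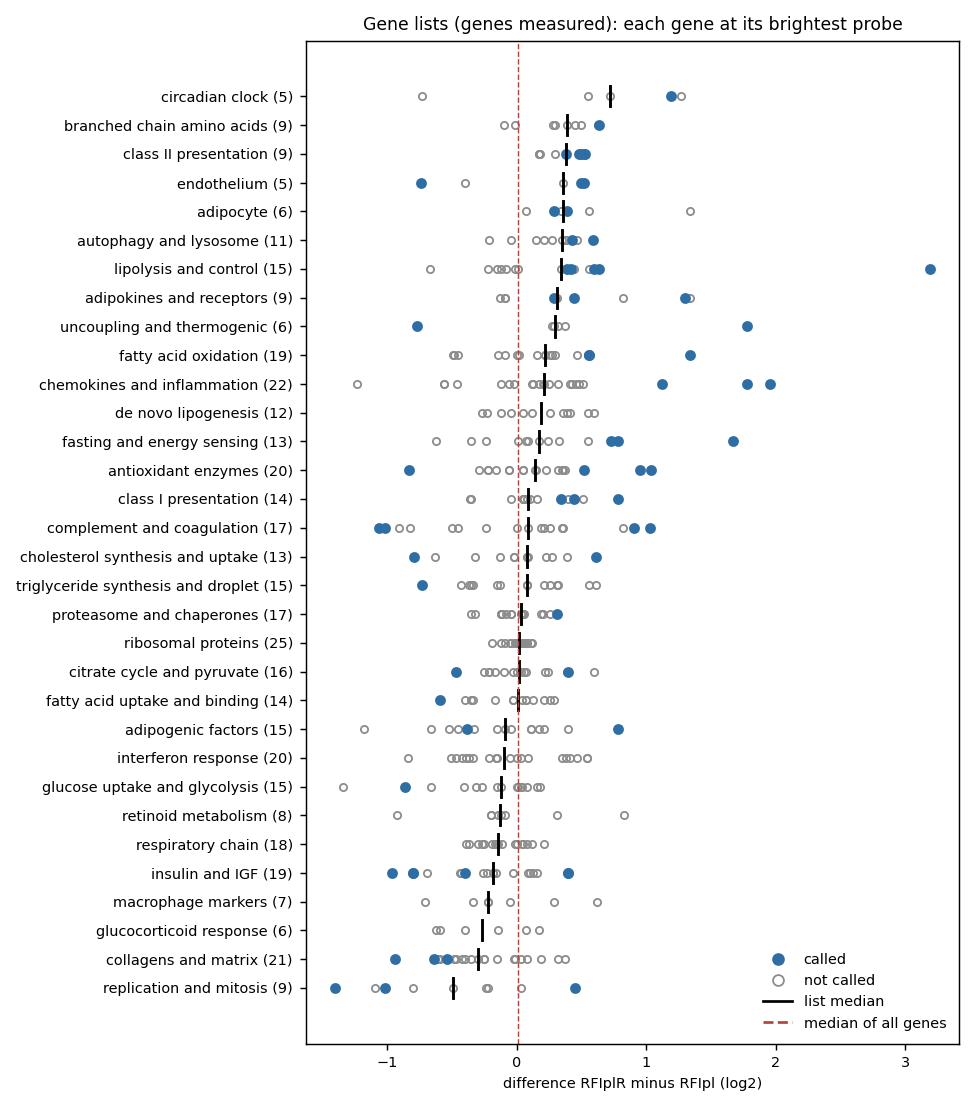
Log2 difference RFIplR minus RFIpl of every measured gene of each list with 5 or more genes, other than the muscle markers, at its probe with the highest mean signal, with the list median as a bar. Filled points were called. The clock list has the highest median, 0.72, and the replication list the lowest, -0.49, beside 0.01 for all genes (dashed line).

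The restricted pigs of the high line ate at the level of the low line, which allows feeding level to be set beside line. RFIpl is shared by both comparisons against it, so their values are given side by side. CES1 differed by 3.19 in RFIplR and by 3.33 in RFIneg, SDR16C5 by 2.25 and 2.30, S100A12 by 1.96 and 1.90 and CLDN3 by -3.93 and -4.45. In RFIneg against RFIpl 1895 probes were called (6.62%). The difference itself, RFIneg minus RFIplR, was called for 0 probes by limma, with 2714 at an unadjusted p under 0.05. With array weights 10 probes were called.

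Some genes were far apart in size between restriction and line, but no such difference was called. PEX11A was lower by 1.27 in RFIplR and by 0.62 in RFIneg, a difference between RFIneg and RFIplR of 0.65 (adjusted p = 0.342). FBXO32 was higher by 1.67 and 0.92, with a difference of -0.75 (adjusted p = 0.513), and SIRT1 by 0.73 and 0.21, with a difference of -0.52 (adjusted p = 0.342). PPARA was higher by 1.34 in RFIplR and stood at -0.20 in RFIneg, with a difference of -1.54 (adjusted p = 0.342). A difference that misses the threshold does not show that the 2 groups were alike.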

How the data were processed

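The deposited scanner files hold intensity values of single spots. Per the file headers they come from Feature Extraction 10.7.3.1, with background subtracted and no scaling between arrays. The submitters' processing notes name R 2.10.0. The authors' deposited table holds log2 values of 24582 of these probes. Each of its columns has a median within 0.001 of 0 and matched the scanner file's log2 processed intensity after centring on the median. It served as an alternative.

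Processed intensity was floored at 1, taken to log2 and lowered by the array's 75th percentile over non-control probes. Control spots and spots marked non-uniform were dropped, and repeat spots averaged. Probes stayed in when well above background on at least 6 of 8 arrays of a group and missing on at most 6 arrays, which left 28606 of 43603. No spot was saturated, no arrays were identical, and the number of arrays limits the precision. Of all probes, 12198 had 1 symbol, 29 several and 31376 none. Accessions named 7187 and gene identifiers 1366, through RefSeq names of Sscrofa11.1, and the rest came from the files. A fold is 2 to the power of the log2 difference. Lists were counted at each gene's probe with the highest mean signal, called its brightest probe.

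A single limma 3.58.1 fit (lmFit and eBayes in R 4.3.3) over the 24 arrays had terms for group and for brightness class (75th percentile over 200 or not). Tests are two-sided. The fit was tested on simulated data. Named genes were the 12 largest rises and falls among called probes with 1 symbol, up to 4 called members a direction from each list by smallest p, and 8 panel genes at the brightest probe. Genes and families picked after their values were seen are marked as such. The members and lists were chosen with earlier results of these data known. Figures were drawn with matplotlib 3.10.9. Alternatives covered blocks for slide, scan day and replicate number, each brightness class alone, background correction, scaling, filters, variance models and left-out arrays. Leaving out RFIpl 1, 2, 7 and 8 together, and counting list members under left-out arrays, were added after the data were seen.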

Additional observations from a re-analysis of the deposited data

Results flagged for a closer look

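Over 226 groups of 8 arrays examined (113 probes of named genes in RFIpl and in RFIplR), 24 had an array farther from the rest than Dixon's 95% limit allows, and chance alone gives about 1 in 20. Levels here have the brightness difference taken out, which raises or lowers the dim arrays (RFIplR 2 and 6 below) against the levels given above.

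RFIpl 3 accounted for 11 of the 24. It was high at SDR16C5 (3.28, against at most 0.91 on the other 7 arrays, and 4.81 at another probe), UCHL1 (1.61), SFRP5 (3.29), CIART (-0.12), F3 (1.70) and FAM149A (4.64), and low at CLDN3 (-3.78, against at least 0.43 on the others), SH3GL3 (-3.20), IGFBP5 (2.39) and C4A (0.24). In each case it lay on the side of the restricted pigs, which was also the side of most RFIneg pigs.

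RFIpl 2, the array with muscle transcripts, was high at COL6A3 (-1.70) and TFPI (-0.68) and low at FASN (6.05), SCD (4.36) and PPARG (4.69).

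Among restricted pigs, RFIplR 7 was low at COL6A3 (-4.02) and COL12A1 (-4.35), RFIplR 2 low at NPR1 (1.79) and ADIPOQ (8.03), RFIplR 6 high at SFN (-0.15) and low at SCD (7.47), RFIplR 8 high at ADORA1 (0.20), and RFIplR 5 high at SLA-2 (6.93).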

How the results depend on the processing

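Without the brightness block 85 probes were called, all of them among the 2963. With slide in its place 25 were called, with slide and brightness 1694, within the bright arrays 954 and within the dim arrays 0 (5028 at an unadjusted p under 0.05, from 2 and 3 arrays). Normexp background correction gave 768, no filter on dim probes 1959, and array weights 4459. Leaving out RFIpl 1 and 2 gave 1900, RFIpl 7 and 8 1782, and RFIpl 1, 2, 7 and 8 together 389. Leaving out 1 array at a time gave 2000 (without RFIpl 6) to 3671 (without RFIpl 3). The other alternatives (16 arrays alone, scan day, quantile and median scaling, the stricter filter, the deposited table, the trended variance) gave 2115 to 3116. Same-numbered arrays of the groups deviated together at correlations of -0.23 to 0.12, and 0 RFIpl arrays were best matched by their own number. Such a check cannot exclude that the numbers pair pigs. The labels state no pairing, and none was used in the fit reported. A replicate block beside brightness gave 1848 calls. For RFIneg against RFIplR, array weights called 10 probes, leaving out 1 RFIpl or RFIplR array at a time 0 to 5, and every other alternative run 0. No RFIneg array was left out. Of 105 called probes named, 69 kept their call whichever RFIpl or RFIplR array was left out and 36 lost it at least once. Most often lost were PPARA and ACTA1 (14 fits), NPR1, PDK1 and PSMC1 (13), DBT and PLIN1 (12), ACAA1, KDR and UCP2 (11) and TPI1 (10). Other alternatives kept fewer of the 105: normexp 39, the bright arrays alone 40, and the fit without the brightness block 9. With RFIpl 1, 2, 7 and 8 left out 25 kept their call.

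Normexp moved the median of all probes from -0.02 to 0.16. Signs turned under it for ISM1 (0.20), PID1 (0.14), MCM3 (0.15), MOXD1 (0.24), NFIL3 (0.12), RFC4 (0.12), LPL (-0.01) and PNPLA2 (-0.11). Within the dim arrays they turned for RFC5 (-0.11), S100A9 (-0.09), SFN (0.25) and PNPLA2 (-0.29). SFN also turned without RFIpl 7 and 8 (0.22) and without RFIpl 1, 2, 7 and 8 (0.13). PNPLA2, at 0.01 in the fit reported, turned without the brightness block (-0.03), with quantile scaling (-0.04), array weights (-0.04) and without RFIpl 2 (-0.01), and ran from -0.07 to 0.08 with 1 array left out. The cause was not tested. Weak signal limits the falls most: several fell from a low level to one not well above background on most restricted arrays.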
